A study of Mus musculus with 13 samples.

Results

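The cells described here were keratinocytes of WT mouse back skin that carried hair follicle genes. They were taken from 2 libraries of embryos at E16.5 and 2 libraries labelled P0. The paper writes this later time point both as P0 and as a late embryonic day joined with P0, so birth before sampling is not settled here. A cell was counted as a member by 3 limits on its unique molecular identifiers (UMIs), which count captured transcripts once each. Krt5 and Krt14, the keratin pair of the basal layer, had to sum to at least 5 UMIs. At least 2 of the 6 follicle genes Sox9, Lhx2, Shh, Lgr5, Sostdc1 and Tbx1 had to have a UMI. The collagen genes Col1a1 and Col3a1 could sum to at most 2 UMIs. The E16.5 libraries held 209 and 242 members and the P0 libraries 3921 and 3649. Together these were 8021 of the 28726 cells that passed the limits on detected genes and mitochondrial UMIs in the 4 libraries, while the whole series held 97363 barcodes in 13 libraries. The remaining 3453 keratinocytes of the same 4 libraries met the keratin and collagen limits but carried fewer than 2 of the 6 genes, and are called other keratinocytes. Levels of the 10 genes named in the rule are not results and are not compared.

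All 4 libraries came from WT mice of the C57BL/6 strain, with no altered allele and no agent in either group. The E16.5 libraries were prepared from microdissected whole back skin, and the P0 libraries from epidermis that had been separated from the dermis after an overnight enzyme digestion. A further P0 WT library, made with an earlier version of the droplet chemistry and without a replicate, and 2 Grhl3-/- libraries at each age, from littermates without the transcription factor Grhl3, were read beside the comparison and did not enter it. By the methods the animals of an age were littermates from a single pregnancy, so age and litter cannot be told apart, and p-values measure only the spread between 2 littermates at each age.

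The hair follicle forms as a placode that grows down into the dermis as a peg under Wnt, ectodysplasin, Hedgehog and BMP signals exchanged with the dermal condensate. As the peg matures, its outer root sheath stays continuous with the basal layer and later holds the bulge stem cells, its matrix divides around the dermal papilla and produces the inner root sheath and the hair shaft, and its upper part gives rise to the sebaceous gland. In mouse back skin the first follicles start as placodes before E16.5 and reach the stage of matrix, inner root sheath and shaft around birth.

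Several other properties of the libraries changed with age. Levels are given as CPM, the UMIs of a gene in the members of a library scaled to a common total of 1000000 UMIs. Both E16.5 WT libraries carried Xist, the RNA of the inactive X chromosome, at 1635 and 1470.4 CPM, against 0.183 and 0.104 CPM at P0. The Y-linked Ddx3y had no UMI at E16.5 and 53.1 and 54.1 CPM at P0, although the methods give a male and a female for each group. Age, sex, dissected tissue, digestion time and the limits on detected genes therefore cannot be told apart in this comparison. The members' median depth was 7515 and 7916 UMIs at E16.5 and 8480 and 10473 at P0, and the summed UMIs were 1605760 and 2011682 against 43682640 and 48125256. Libraries shared at most 1.6% of their cell barcodes.

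The label was described with 25 follicle markers that the rule did not use. Members were chosen on follicle genes of the same cells, so this is a description and no test. Members held more of 19, 21, 23 and 23 of them in CPM than other keratinocytes of the same library, at E16.5 replicates 1 and 2 and P0 replicates 1 and 2, with median log2 ratios of 1.05, 1.298, 0.88 and 0.76. Summed over the 25 markers, P0 replicate 2 held 7327 CPM in members and 7435 CPM in other keratinocytes, while the other libraries held more in members. Krt15 and Wnt10a were lower in members in every library. The gate was not equally strict at the 2 ages. Members with exactly 2 of the 6 genes, just inside the rule, made up 60.8% and 58.7% of members at E16.5 and 33.5% and 33.1% at P0, and 60.6% and 61.3% at E16.5 and 64.2% and 66.8% at P0 of the other keratinocytes, just outside it, carried exactly 1. Members were 35.0% (95% exact binomial interval 31.2 to 39.0) and 26.7% (23.9 to 29.7) of keratinocytes at E16.5 and 74.6% (73.4 to 75.7) and 77.4% (76.2 to 78.6) at P0, with intervals that cover counting error only. When each cell was first reduced at random to 3000 UMIs and the rule applied to the reduced counts, called the thinned gate here, the shares were 18.9% and 15.1% against 55.5% and 53.6%. Cells under 3000 UMIs were left out. Reduced counts also met the collagen limit more easily and the keratin limit less easily. Keratinocytes within both limits went from 597 and 906 to 1095 and 1388 at E16.5, and from 5258 and 4713 to 4361 and 3726 at P0. The thinned gate therefore does not isolate depth. With it, members held more of 19, 20, 17 and 20 of the 25 markers, with median log2 ratios of 0.85, 1.26, 0.45 and 0.47. In sums over these reduced cells 1582 of 10791 genes were higher and 1464 lower at P0, 14.7% and 13.6%, and counts of a list with the thinned gate are to be read against these. The collagen limit removed 60.3% and 49.8% of cells with the keratin pair at E16.5 and 0.0950% and 0.0212% at P0, so age and dissection cannot be told apart in these shares.

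RNA of other cell types also differed between the ages. Haemoglobin and other blood genes summed to 9841 and 20615 CPM in E16.5 members and to 2.0145 and 0.769 CPM in P0 members. The summed fibroblast markers were 1523 and 1631 against 527 and 669 CPM, and all 12 fibroblast markers tested were lower at P0. Most of this sum was Dcn, the proteoglycan decorin, at 1023 and 1206 against 407.8 and 556.1 CPM, and without it the sums were 500.1 and 425 against 119 and 113 CPM. Whether Dcn RNA in these barcodes came from fibroblasts or from keratinocytes was not tested. The melanocyte markers went the other way, at 28.0 and 6.46 against 1012 and 699 CPM, and 467 of 1262 and 271 of 1053 P0 barcodes with at least 10 melanocyte marker UMIs met the rule, against 1 of 71 and 0 of 54 at E16.5. Immune markers were at 63.5 and 68.6 CPM at E16.5 and at 141 and 197 CPM at P0. Leaving out members with 3 or more UMIs of melanocyte, immune, muscle, endothelial or Merkel markers left 198, 234, 2918 and 3106 members, and a result without them is given where a call changed.

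Of 13652 genes tested in the members, 2807 were higher and 2366 lower at P0, 20.6% and 17.3% of the genes, by edgeR's quasi-likelihood test at a Benjamini-Hochberg adjusted p under 0.05. The libraries of the 2 ages did not overlap in 10009 genes, 73.3% of those tested, and the median log2 fold change over all genes was 0.10. Where libraries of the 2 ages are said to lie apart for a gene, this describes its values and adds no support to its call. In summed counts, more cells with a gene and more of its RNA in each cell cannot be told apart. In the text, each gene's CPM is given for E16.5 replicates 1 and 2 and then for P0 replicates 1 and 2, fold changes are log2 of P0 over E16.5 with the standard error after ±, and "rose" and "fell" are kept for genes past that threshold. The P0 library of the earlier chemistry lay above both E16.5 libraries for 1528 of 2801 genes that rose (54.6%) and below both for 1318 of 2358 that fell (55.9%). In Grhl3-/- members, where 1357 and 972 of 13665 genes were higher and lower at P0 (9.93% and 7.11%), 926 of 2779 WT genes that rose and were tested rose as well (33.3%), 631 of 2323 that fell fell as well (27.2%), and 14 and 53 moved the opposite way. Counts of a list in the P0 library of the earlier chemistry or in Grhl3-/- members are to be read against these shares. By the methods the Grhl3-/- libraries had the same tissue and digestion at each age as the WT libraries. Of the markers of other cell types that fell in WT, 11 of 12 fibroblast, 6 of 6 blood and 7 of 7 muscle markers also fell in Grhl3-/- members. A shared direction there therefore does not tell age from dissection. When the P0 library of the earlier chemistry was added to the test as a further P0 replicate, 49 genes were higher and 79 lower, and 100 of the 119 called genes described in the text were no longer past the threshold.

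Genes of the differentiated follicle lineages were detected in a larger share of the members at P0. These are shares of cells with UMIs, which free RNA can also give. As a background, the same shares are given for barcodes with at least 10 UMIs of immune or melanocyte markers. At P0 49 of 490 and 56 of 601 of the former and the melanocyte barcodes already described met the rule themselves. Median depth was 6522 and 6492.5 UMIs at E16.5 and 6040 and 8270 UMIs at P0 in immune barcodes, and 6408 and 5758.5 UMIs at E16.5 and 6954 and 7374 UMIs at P0 in melanocyte barcodes. After thinning to 3000 UMIs, at least 2 UMIs of the inner root sheath keratins were found in 0% and 0.415% of members at E16.5 and in 6.07% and 5.51% at P0. For hair shaft keratins the shares were 0% and 0% against 2.24% and 3.73%, and for the matrix factors Msx1, Msx2, Foxn1, Hoxc13 and Dlx3 they were 1.48% and 3.32% against 9.23% and 9.45%. The 0 counts rest on 203 and 241 thinned cells at E16.5 and allow shares of up to 1.48% and 1.24%. Upper follicle genes (Krt79, Plet1, Gata6, Lrig1) were found in 9.36% and 11.2% of members at E16.5 and in 24.2% and 21.2% at P0, and outer root sheath genes in 24.6% and 22.8% against 38.7% and 33.3%. The 2 ages did not overlap in any of these 5 groups, each with 2 libraries at each age. In immune barcodes at P0, inner root sheath keratins were detected in 0.816% and 0.666%, hair shaft keratins in 0.204% and 0.333%, matrix factors in 0.204% and 1.16%, upper follicle genes in 6.12% and 3.83% and outer root sheath genes in 12.0% and 8.82%. In melanocyte barcodes at P0, inner root sheath keratins were detected in 1.90% and 0.855%, hair shaft keratins in 0.317% and 0.855%, matrix factors in 2.61% and 1.52%, upper follicle genes in 12.8% and 6.93% and outer root sheath genes in 15.6% and 9.31%. At E16.5 all 5 shares were 0% in melanocyte barcodes, and in immune barcodes upper follicle genes were at 0.203% and 0% and outer root sheath genes at 4.07% and 2.70%, with the others at 0%. At P0 the shares of members were above those of both kinds of barcode for all 5 groups in both libraries. All 5 shares were also higher at P0 in both kinds of barcode, and the part of this background in the difference between the ages was not tested. Other keratinocytes of these libraries held inner root sheath keratins in 0.80% and 0.153% at E16.5 and 7.85% and 6.58% at P0. Hair shaft keratins were in 0.267% and 0% at E16.5 and 1.42% and 2.91% at P0 of them. Matrix factors were in 0% and 0.306% at E16.5 and 8.15% and 9.40% at P0 of them. Upper follicle genes were in 2.93% and 1.68% at E16.5 and 17.7% and 19.7% at P0 of them. Outer root sheath genes were in 2.13% and 2.75% at E16.5 and 19.7% and 18.3% at P0 of them. In other keratinocytes all 5 shares were thus higher at P0 as well, and inner root sheath keratins were at a higher share there than in members at P0. The suprabasal keratins Krt1 and Krt10 were detected in 49.3% and 52.3% of members at E16.5 and in 35.8% and 28.6% at P0. In immune barcodes these shares were 37.0% and 46.2% at E16.5 and 32.7% and 27.0% at P0, and in melanocyte barcodes 54.9% and 58.5% at E16.5 and 35.0% and 28.1% at P0. The suprabasal shares of members were thus near those of barcodes of other cell types and are not read as a change in the members. Mki67 or Top2a, both made by dividing cells, were found in 12.8% and 14.52% at E16.5 and in 34.8% and 26.4% at P0. The shares were 8.94% and 7.13% at E16.5 and 16.53% and 12.6% at P0 in immune barcodes and 19.7% and 5.66% at E16.5 and 30.3% and 21.7% at P0 in melanocyte barcodes, also higher at P0 in both. Without thinning, 262 of 388 and 463 of 664 other keratinocytes at E16.5 had no UMI of either gene, against 693 of 1337 and 677 of 1064 at P0. Detection of these genes was thus higher at P0 in other keratinocytes as well. In the P0 library of the earlier chemistry the inner root sheath share was 4.07%, the hair shaft share 1.82%, the matrix share 4.86%, the upper follicle share 30.4% and the outer root sheath share 26.1%. Its Mki67 or Top2a share was 16.2% and its suprabasal share 85.7%, and all 7 were above both E16.5 libraries.

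**Figure D1:**
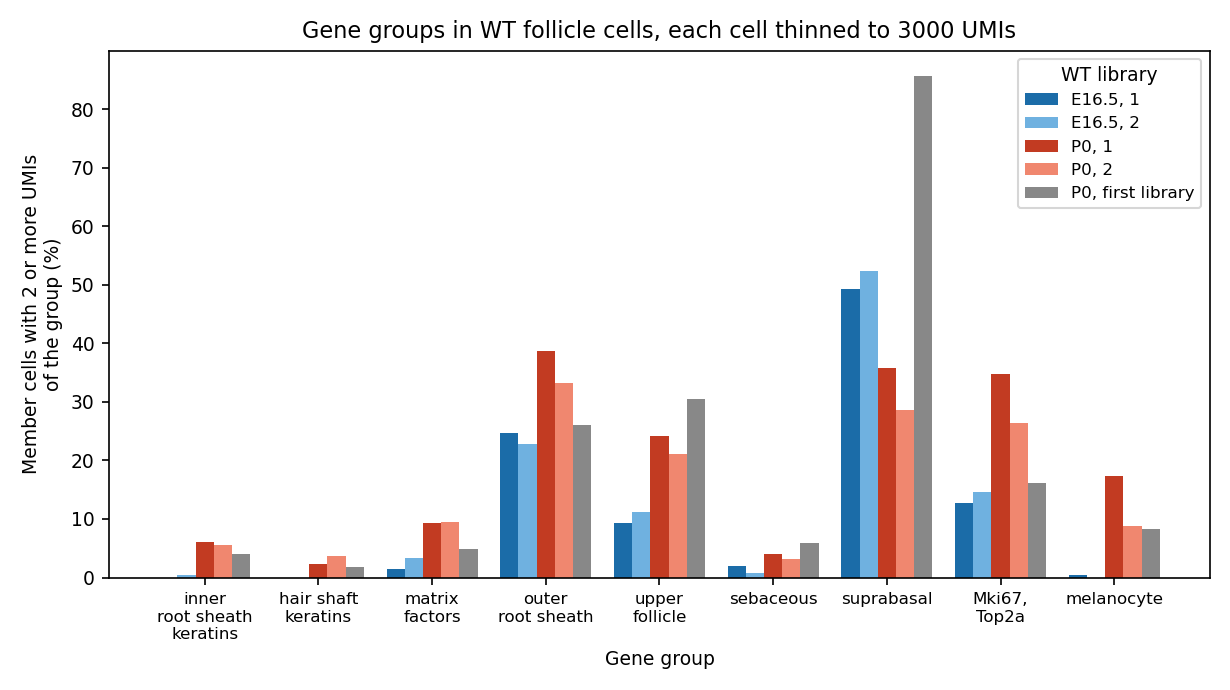
Share of WT follicle members with at least 2 UMIs of each gene group (y axis, percent of members) after each cell was thinned to 3000 UMIs, one bar for each library. Inner root sheath, hair shaft, matrix, outer root sheath and upper follicle shares of both replicated P0 libraries stood above both E16.5 libraries, while suprabasal shares were near those of barcodes of other cell types and the single P0 library of the earlier chemistry was highest at 85.7%.

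The inner root sheath is the layered casing that guides the growing shaft, and its keratins Krt25, Krt27, Krt28 and Krt71 are made almost nowhere else. Of 15 inner root sheath genes tested, 9 rose and 1 fell, with a median log2 fold change of 1.61. Krt28, a type I keratin of all its layers, stood at 1.25 and 2.49 CPM at E16.5 and 58.9 and 56.7 CPM at P0 (log2 fold change 4.93 ± 0.27, adjusted p = 1.01e-05). Krt27, also type I, stood at 4.98 and 4.47 CPM at E16.5 and 14.7 and 13.3 CPM at P0 (log2 fold change 1.61 ± 0.28, adjusted p = 0.00217). Krt71, their type II partner, stood at 1.87 and 1.49 CPM at E16.5 and 6.98 and 4.36 CPM at P0 (log2 fold change 1.80 ± 0.54, adjusted p = 0.0273). Both P0 libraries were above both E16.5 libraries for these 3 keratins, but Krt71 was not past the threshold by DESeq2 (adjusted p = 0.0528) or with 3 of the 6 genes (0.238). Krt25 had no UMI in either E16.5 library and 11.3 and 6.55 CPM at P0, at least 10.6-fold higher when the E16.5 group is set to the 3 UMIs that a count of 0 allows. Gata3, the transcription factor needed for inner root sheath identity, rose by less, from 198 and 193 to 283 and 265 CPM (log2 fold change 0.52 ± 0.11, adjusted p = 0.00636). Cux1, a homeobox factor of the inner root sheath, rose at 69.1 and 94.0 CPM at E16.5 and 153 and 157 CPM at P0 (log2 fold change 0.95 ± 0.14, adjusted p = 0.00119). The cystatin gene Cst6 rose at 15.6 and 10.9 CPM at E16.5 and 50.2 and 76.1 CPM at P0 (log2 fold change 2.31 ± 0.29, adjusted p = 0.000431). Trichohyalin (Tchh), which hardens the sheath, stood at 5.60 and 5.47 CPM at E16.5 and 8.54 and 6.34 CPM at P0 and was not past the threshold (log2 fold change 0.46 ± 0.33, adjusted p = 0.309). Krt27 and Cux1 rose less in members than in other keratinocytes, with differences in log2 change of -3.16 and -1.09, past the threshold and listed with the flagged results. For 8 of the 9 genes that rose the P0 library of the earlier chemistry also lay above both E16.5 libraries, and 8 of the 9 rose in Grhl3-/- members. With the thinned gate 4 of 10 inner root sheath genes tested rose, and Krt27, Gata3 and Cux1 were no longer past the threshold (log2 fold changes 0.62, 0.37 and 0.42, adjusted p = 0.468, 0.0609 and 0.0797).

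The promoters of these 4 keratin genes, which lie in keratin clusters on chromosomes 11 and 15 and moved in the same direction, are shown to give the sequence in front of them, from 250 bases before to 50 bases after the start of each gene (RefSeq, GRCm38.p6, all on the minus strand). Capitals mark AGATAA, a core that GATA factors can bind, and TATAAA, the TATA box, both searched for on both strands and both chosen after the sequences were seen. Krt25 lies at chr11:99322902-99323201, Krt27 at chr11:99351069-99351368, Krt28 at chr11:99374854-99375153 and Krt71 at chr15:101743048-101743347.
Krt25: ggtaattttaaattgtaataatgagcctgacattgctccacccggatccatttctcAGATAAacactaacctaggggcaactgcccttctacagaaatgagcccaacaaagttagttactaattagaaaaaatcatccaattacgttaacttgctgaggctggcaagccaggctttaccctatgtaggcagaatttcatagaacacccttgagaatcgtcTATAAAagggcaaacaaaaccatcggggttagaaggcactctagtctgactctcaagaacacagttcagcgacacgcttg
Krt27: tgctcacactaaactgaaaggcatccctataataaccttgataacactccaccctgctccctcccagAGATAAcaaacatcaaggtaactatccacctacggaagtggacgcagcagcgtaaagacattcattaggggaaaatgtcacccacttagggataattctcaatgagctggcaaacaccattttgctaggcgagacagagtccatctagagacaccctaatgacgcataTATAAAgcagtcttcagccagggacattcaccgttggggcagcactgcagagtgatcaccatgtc
Krt28: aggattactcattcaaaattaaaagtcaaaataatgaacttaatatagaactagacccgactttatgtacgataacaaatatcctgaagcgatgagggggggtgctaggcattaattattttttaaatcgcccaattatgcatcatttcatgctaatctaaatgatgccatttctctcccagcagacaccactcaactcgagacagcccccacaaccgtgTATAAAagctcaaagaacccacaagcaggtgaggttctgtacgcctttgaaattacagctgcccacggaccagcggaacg
Krt71: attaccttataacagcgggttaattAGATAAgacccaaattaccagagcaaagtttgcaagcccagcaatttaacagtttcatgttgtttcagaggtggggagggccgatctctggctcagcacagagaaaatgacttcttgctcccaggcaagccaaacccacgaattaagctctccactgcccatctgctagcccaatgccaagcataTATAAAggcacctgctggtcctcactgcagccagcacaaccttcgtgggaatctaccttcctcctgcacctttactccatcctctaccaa
TATAAA was found in all 4, at base 221 of Krt25, base 236 of Krt27, base 221 of Krt28 and base 211 of Krt71, against 13.6% of 32851 mouse promoters of the same length. AGATAA was found in Krt25, Krt27 and Krt71, at bases 57, 68 and 26, and not in Krt28, against 11.2% of promoters. These are matches of letters and not measured binding.

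Matrix cells divide at the base of the follicle, and their descendants build the shaft. Of 19 matrix and hair shaft genes tested, 10 rose and 2 fell, with a median log2 fold change of 1.303. Dlx3, a homeobox factor required for shaft formation, stood at 13.7 and 12.4 CPM at E16.5 and 42.0 and 41.0 CPM at P0 (log2 fold change 1.70 ± 0.18, adjusted p = 0.000194). Hoxc13, which switches on hair keratin genes, stood at 22.4 and 13.9 CPM at E16.5 and 55.9 and 57.2 CPM at P0 (log2 fold change 1.70 ± 0.20, adjusted p = 0.000366). For both factors each P0 library was well above each E16.5 library. Krt35, an early shaft keratin, had 2 UMIs in all at E16.5 and 30.4 and 51.6 CPM at P0, a ratio of 75.1 with a 95% counting interval of 20.8 to 621. Krtap17-1, a keratin-associated protein gene of the shaft, rose from 4.36 and 6.46 to 139 and 169.6 CPM (log2 fold change 4.83 ± 0.23, adjusted p = 5.58e-06). In Grhl3-/- members its change was 0.29 (adjusted p = 0.685), which was not past the threshold. Msx2, a BMP-responsive factor of the matrix, stood at 16.2 and 28.8 CPM at E16.5 and 34.3 and 40.1 CPM at P0 (log2 fold change 0.73 ± 0.23, adjusted p = 0.0339) and was no longer past the threshold with the thinned gate (log2 fold change 0.34, adjusted p = 0.379). Foxn1, the nude factor that acts in the matrix and shaft, rose at 3.11 and 1.99 CPM at E16.5 and 6.84 and 5.24 CPM at P0 (log2 fold change 1.303 ± 0.43, adjusted p = 0.0389), on 5 and 4 UMIs at E16.5. Foxn1 was not past the threshold by DESeq2 (adjusted p = 0.102), with 900 to 4800 genes at both ages (0.155) or without members carrying Mki67 or Top2a (0.394). Dkk3, a member of the Dickkopf family, rose at 13.1 and 7.95 CPM at E16.5 and 30.2 and 24.8 CPM at P0 (log2 fold change 1.45 ± 0.25, adjusted p = 0.00236). Hoxc13 and Msx2 rose less in members than in other keratinocytes, with differences in log2 change of -1.56 and -1.69, past the threshold and listed with the flagged results. Msx2 stood at 29.4 and 34.9 CPM in other keratinocytes at P0. The P0 library of the earlier chemistry lay beyond both E16.5 libraries for 8 of the 10 genes that rose, and 6 rose in Grhl3-/- members.

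The outer root sheath surrounds these layers and later holds the bulge. Of 23 outer root sheath and bulge genes tested, 12 rose and 6 fell, with a median log2 fold change of 0.64. Hopx, a homeodomain gene of bulge stem cells, stood at 3.74 and 1.49 CPM at E16.5 and 54.8 and 57.5 CPM at P0 (log2 fold change 4.52 ± 0.29, adjusted p = 1.93e-05). The vitamin D receptor Vdr, without which follicles fail to cycle, stood at 7.47 and 6.46 CPM at E16.5 and 65.2 and 68.6 CPM at P0 (log2 fold change 3.30 ± 0.19, adjusted p = 1.44e-05). Foxc1, a forkhead factor of quiescent bulge cells, rose at 3.74 and 5.97 CPM at E16.5 and 29.2 and 28.6 CPM at P0 (log2 fold change 2.57 ± 0.25, adjusted p = 0.000144). These 3 genes were at most at 7.47 CPM in the E16.5 libraries and at least at 28.6 CPM in the P0 libraries. Runx1, a factor that activates follicle stem cells, rose at 65.4 and 50.2 CPM at E16.5 and 133 and 138 CPM at P0 (log2 fold change 1.27 ± 0.14, adjusted p = 0.0003). Barx2, a homeobox factor of the follicle, rose at 172 and 161 CPM at E16.5 and 301 and 218 CPM at P0 (log2 fold change 0.67 ± 0.16, adjusted p = 0.0101). The rise of Barx2 was gone when 3 of the 6 genes were asked of a member (log2 fold change -0.0081, adjusted p = 0.98). Tcf7l1, the Wnt effector that keeps bulge cells undifferentiated, rose at 14.9 and 13.9 CPM at E16.5 and 33.0 and 29.6 CPM at P0 (log2 fold change 1.15 ± 0.19, adjusted p = 0.00163). Nfatc1, which holds bulge cells in quiescence, stood at 48.0 and 34.3 CPM at E16.5 and 48.1 and 38.3 CPM at P0 and was not past the threshold (log2 fold change 0.11 ± 0.19, adjusted p = 0.673). Krt15, a keratin of the bulge and the basal layer, stood at 2967 and 3266 CPM at E16.5 and 2782 and 2507 CPM at P0 (log2 fold change -0.21 ± 0.13, adjusted p = 0.225), likewise not past it. Gas1, a Hedgehog co-receptor, fell from 369 and 328 to 78.6 and 87.4 CPM (log2 fold change -2.04 ± 0.12, adjusted p = 1.78e-05). The part of RNA from dermal cells in this fall was not tested. Of the 12 genes that rose, 6 were also above both E16.5 libraries in the P0 library of the earlier chemistry and 3 rose in Grhl3-/- members. Both shares were no higher than the 54.6% and 33.3% of all genes that rose. All 6 genes that fell in WT fell in Grhl3-/- members, beside 27.2% of all genes that fell and 11 of 12 fibroblast markers.

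The upper follicle connects the sheath with the epidermal surface. Of 16 upper follicle genes tested, 10 rose and 2 fell, with a median log2 fold change of 0.83. Krt79, a keratin of the cells that open the hair canal, rose from 189 and 279.9 to 837 and 1028 CPM (log2 fold change 2.02 ± 0.19, adjusted p = 0.000127). Lrig1, which marks stem cells of the junctional zone, stood at 39.2 and 29.8 CPM at E16.5 and 70.1 and 62.7 CPM at P0 (log2 fold change 0.99 ± 0.16, adjusted p = 0.00187). Gata6, a factor of the sebaceous duct, stood at 1.25 and 2.49 CPM at E16.5 and 8.70 and 9.75 CPM at P0 (log2 fold change 2.29 ± 0.40, adjusted p = 0.00237). Gata6 was not past the threshold with the thinned gate (log2 fold change 2.20, adjusted p = 0.0562). Each of the 10 genes that rose was above both E16.5 libraries in the P0 library of the earlier chemistry too. The kallikrein gene Klk7, whose product cleaves the links between cornified cells, rose at 6.23 and 3.48 CPM at E16.5 and 36.7 and 45.5 CPM at P0 (log2 fold change 3.15 ± 0.29, adjusted p = 0.000101). Klk10 fell at 56.0 and 49.7 CPM at E16.5 and 11.01 and 8.603 CPM at P0 (log2 fold change -2.40 ± 0.18, adjusted p = 4.75e-05), but stood at 52.3 CPM in the P0 library of the earlier chemistry, between the E16.5 libraries.

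Sebaceous genes, which make and store the lipids of sebum, had a median log2 fold change of 2.26, with 11 of 17 tested higher and 2 lower. Cidea, a lipid droplet protein gene, had 3 UMIs in all at E16.5 and 36.4 and 30.9 CPM at P0, a ratio of 40.4 with a 95% counting interval of 13.8 to 196. Scd1, a fatty acid desaturase, stood at 8.10 and 9.94 CPM at E16.5 and 41.2 and 46.5 CPM at P0 (log2 fold change 2.30 ± 0.21, adjusted p = 9.57e-05). Soat1, which esterifies cholesterol, stood at 3.74 and 1.49 CPM at E16.5 and 20.4 and 26.1 CPM at P0 (log2 fold change 3.25 ± 0.38, adjusted p = 0.000325). Elovl4, which lengthens fatty acids, stood at 13.1 and 16.9 CPM at E16.5 and 52.7 and 69.0 CPM at P0 (log2 fold change 2.04 ± 0.22, adjusted p = 0.000226). All 11 genes that rose were above both E16.5 libraries in the P0 library of the earlier chemistry, while 2 of them rose in Grhl3-/- members. Sebaceous markers were detected in 1.97% and 0.830% of thinned members at E16.5 and 4.004% and 3.15% at P0. In immune barcodes the shares were 2.03% and 2.21% at E16.5 and 0.612% and 0.832% at P0, and in melanocyte barcodes 1.41% and 5.66% at E16.5 and 14.2% and 18.1% at P0, so that the E16.5 shares of members were under those of immune barcodes and the P0 shares under those of melanocyte barcodes. In other keratinocytes 15 of 17 sebaceous genes were higher at P0, with a median of 4.14, beside 25.2% of all genes higher in that comparison.

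**Figure D2:**
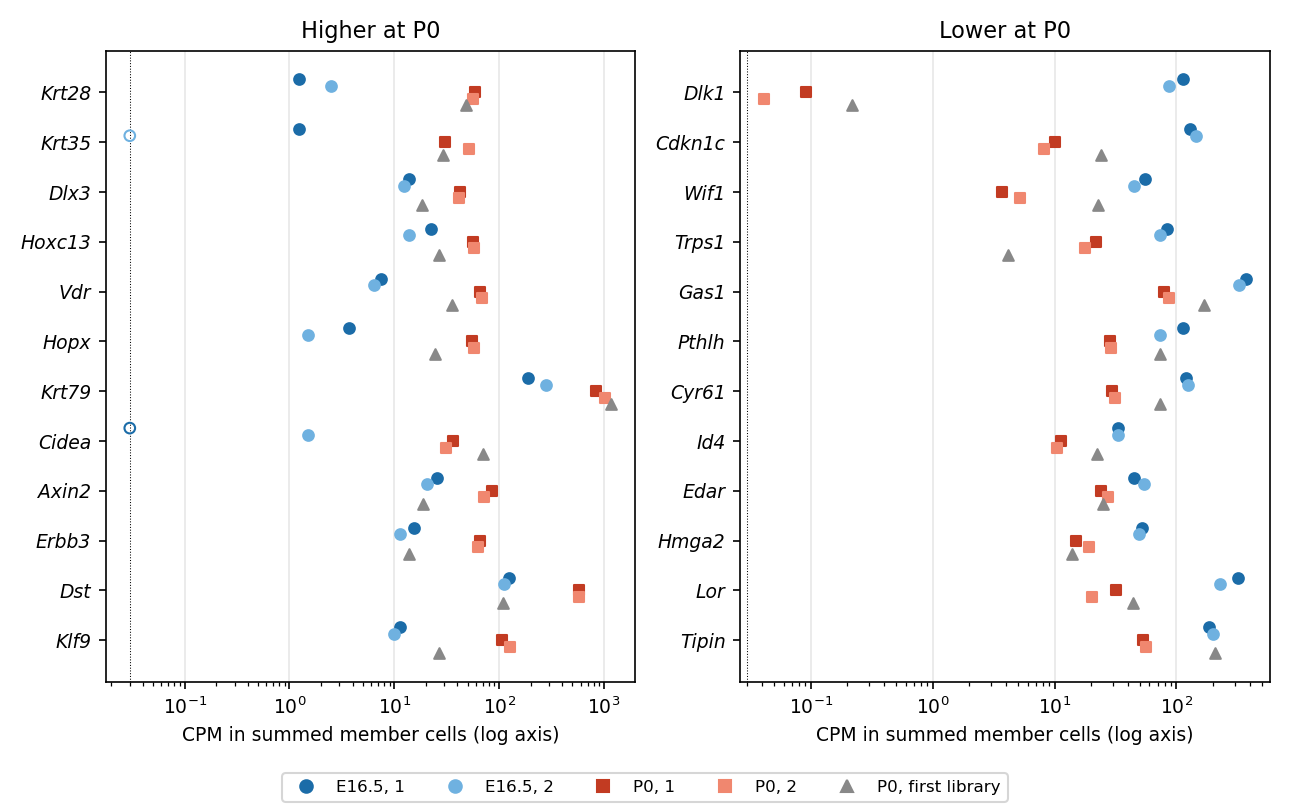
CPM of 24 genes in the summed WT members (x axis, log scale), with one symbol for each E16.5 library (circles), each P0 library (squares) and the P0 library of the earlier chemistry (triangles), and open symbols at the dotted line for libraries with no UMI. The squares lay to the right of the circles in the left panel and to the left in the right panel for every gene, while the triangle lay among or beyond the circles for Axin2, Dst and Tipin and near the squares for Krt28, Krt35, Krt79 and Edar.

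Of 23 genes of the placode and peg tested, 5 rose and 8 fell, with a median log2 fold change of 0.07, a share of rises near the 20.6% of all genes. Trps1, a GATA-type repressor of the early follicle, fell from 83.5 and 72.6 to 22.05 and 17.6 CPM (log2 fold change -1.94 ± 0.16, adjusted p = 6.88e-05), and stood at 4.17 CPM in the P0 library of the earlier chemistry. Pthlh, the parathyroid hormone-related ligand, fell at 113 and 73.1 CPM at E16.5 and 28.7 and 29.3 CPM at P0 (log2 fold change -1.64 ± 0.19, adjusted p = 0.000301). Cyr61, a matricellular protein gene, fell at 120.2 and 125 CPM at E16.5 and 29.5 and 31.4 CPM at P0 (log2 fold change -1.98 ± 0.12, adjusted p = 1.79e-05). For these 3 genes both P0 libraries were far below both E16.5 libraries. The log2 age change in members minus that in other keratinocytes was 0.72 for Cyr61, beside 0.69 for Col1a2 of the fibroblast list. It was -2.90 for Trps1 and -1.96 for Pthlh. The part of RNA from dermal cells in the fall of Cyr61 was not tested. Edar, the ectodysplasin receptor that marks placodes, fell at 44.8 and 53.7 CPM at E16.5 and 24.2 and 27.7 CPM at P0 (log2 fold change -0.90 ± 0.16, adjusted p = 0.00242), and with the thinned gate its change was -0.50 (adjusted p = 0.118). Lef1, the Wnt effector of the placode and later of the matrix, fell at 84.7 and 87.0 CPM at E16.5 and 54.2 and 59.4 CPM at P0 (log2 fold change -0.57 ± 0.12, adjusted p = 0.00725). Its change was again not past the threshold with the thinned gate (log2 fold change -0.56, adjusted p = 0.0625) and turned to 0.095 when 3 of the 6 genes were asked. Krt17, the keratin of the early follicle and periderm, fell from 4118 and 3865 to 2285 and 2462 CPM (log2 fold change -0.72 ± 0.12, adjusted p = 0.0022), although it was at 5622 CPM in the P0 library of the earlier chemistry. Sox21, which acts in the shaft cuticle, rose at 27.4 and 26.3 CPM at E16.5 and 66.4 and 85.4 CPM at P0 (log2 fold change 1.53 ± 0.18, adjusted p = 0.000377). The ligands Wnt10b and Wnt10a, which are among the first placode signals, were not past the threshold. Wnt10b stood at 4.36 and 7.46 CPM at E16.5 and 6.23 and 8.35 CPM at P0 (log2 fold change 0.30 ± 0.36, adjusted p = 0.53). Wnt10a stood at 32.4 and 40.8 CPM at E16.5 and 25.7 and 28.1 CPM at P0 (log2 fold change -0.42 ± 0.17, adjusted p = 0.0733). Of the 8 genes that fell, 7 were also below both E16.5 libraries in the P0 library of the earlier chemistry and 6 fell in Grhl3-/- members.

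Of 52 genes of the Wnt pathway tested, 17 rose and 9 fell, with a median log2 fold change of 0.37. The share of falls was that of all genes (17.3%), so the genes that fell are given as single genes. Axin2, a feedback inhibitor and a common readout of the pathway, rose at 25.5 and 20.4 CPM at E16.5 and 85.2 and 71.4 CPM at P0 (log2 fold change 1.81 ± 0.18, adjusted p = 0.000144). In the P0 library of the earlier chemistry it was at 18.8 CPM, below both E16.5 libraries, and in Grhl3-/- members its change was 0.37 (adjusted p = 0.253). Wif1, which binds Wnt ligands, fell at 54.8 and 45.2 CPM at E16.5 and 3.71 and 5.22 CPM at P0 (log2 fold change -3.44 ± 0.23, adjusted p = 2.36e-05). Kremen2, a Dickkopf receptor, fell at 123 and 140.2 CPM at E16.5 and 40.9 and 54.8 CPM at P0 (log2 fold change -1.43 ± 0.16, adjusted p = 0.000312). Both also fell in Grhl3-/- members, by 2.96 and 1.33 on the log2 scale. Among ligands, Wnt16 rose at 16.8 and 24.9 CPM at E16.5 and 35.7 and 40.6 CPM at P0 (log2 fold change 0.88 ± 0.20, adjusted p = 0.00801). Wnt6 fell at 212 and 199 CPM at E16.5 and 123 and 139 CPM at P0 (log2 fold change -0.62 ± 0.12, adjusted p = 0.00367), and was not past the threshold with the thinned gate (log2 fold change -0.23, adjusted p = 0.283).

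Of 14 Hedgehog genes tested, 3 rose and 1 fell, with a median of 0.10, a share of rises near that over all genes (20.6%). Ptch1, receptor and target, rose at 192 and 164 CPM at E16.5 and 259 and 259 CPM at P0 (log2 fold change 0.57 ± 0.12, adjusted p = 0.00601). The mediator Gli3 rose at 8.10 and 8.95 CPM at E16.5 and 30.8 and 23.5 CPM at P0 (log2 fold change 1.69 ± 0.25, adjusted p = 0.00107). The target gene Gli1 stood at 56.0 and 58.7 CPM at E16.5 and 62.3 and 57.4 CPM at P0 (log2 fold change 0.09 ± 0.13, adjusted p = 0.617) and was not past the threshold. In the BMP pathway 6 of 24 genes rose and 3 fell, with a median of 0.30, both shares near those of all genes (20.6% and 17.3%). Id4, a target that blocks basic helix-loop-helix factors, fell at 33.0 and 33.3 CPM at E16.5 and 11.3 and 10.5 CPM at P0 (log2 fold change -1.58 ± 0.17, adjusted p = 0.000242). The inhibitory Smad7 rose at 13.7 and 15.9 CPM at E16.5 and 30.8 and 36.9 CPM at P0 (log2 fold change 1.22 ± 0.20, adjusted p = 0.00178). The transducer Smad5 rose at 36.7 and 36.8 CPM at E16.5 and 69.1 and 66.8 CPM at P0 (log2 fold change 0.92 ± 0.14, adjusted p = 0.00102). The ligands Bmp2 and Bmp4 and the antagonist Fst were not past the threshold, with log2 fold changes of 0.31 (adjusted p = 0.123), 0.29 (adjusted p = 0.209) and 0.085 (adjusted p = 0.723). Of 15 ectodysplasin and NF-kB genes 3 rose and 4 fell, where the share of rises was again near 20.6%. The subunit Nfkb1 rose at 37.4 and 32.3 CPM at E16.5 and 61.9 and 64.6 CPM at P0 (log2 fold change 0.90 ± 0.15, adjusted p = 0.0016). The adaptor Tab2 rose at 36.7 and 36.3 CPM at E16.5 and 94.8 and 64.5 CPM at P0 (log2 fold change 1.16 ± 0.21, adjusted p = 0.00267).

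Of 23 FGF and EGF signalling genes 10 rose and 4 fell, with a median of 0.33. The receptors Erbb3, Fgfr3, Egfr and Fgfr2 all rose. Erbb3 stood at 15.6 and 11.4 CPM at E16.5 and 65.6 and 62.9 CPM at P0 (log2 fold change 2.30 ± 0.18, adjusted p = 5.49e-05). Fgfr3 stood at 18.7 and 26.3 CPM at E16.5 and 61.6 and 51.5 CPM at P0 (log2 fold change 1.34 ± 0.19, adjusted p = 0.000851). Egfr stood at 14.9 and 18.4 CPM at E16.5 and 44.5 and 36.7 CPM at P0 (log2 fold change 1.303 ± 0.20, adjusted p = 0.00112). For these 3 receptors each P0 library was above each E16.5 library. Fgfr2 stood at 115 and 116 CPM at E16.5 and 163 and 171 CPM at P0 (log2 fold change 0.56 ± 0.11, adjusted p = 0.00445). Dusp6, a phosphatase induced by the pathway that switches off its kinase, fell at 76.6 and 84.0 CPM at E16.5 and 26.7 and 28.8 CPM at P0 (log2 fold change -1.50 ± 0.13, adjusted p = 9.07e-05). For 5 of the 10 genes that rose the P0 library of the earlier chemistry was above both E16.5 libraries, and 6 rose in Grhl3-/- members. The shares over all genes that rose were 54.6% and 33.3%. In the Notch pathway 5 of 16 genes rose and 0 fell, at a median of 0.38. The receptor Notch1 rose at 61.0 and 46.7 CPM at E16.5 and 139 and 114 CPM at P0 (log2 fold change 1.27 ± 0.16, adjusted p = 0.000536). The nuclear partner Rbpj rose at 21.8 and 19.9 CPM at E16.5 and 38.8 and 29.5 CPM at P0 (log2 fold change 0.75 ± 0.20, adjusted p = 0.0191). The target Hes1 rose at 51.7 and 74.6 CPM at E16.5 and 345 and 169.6 CPM at P0 (log2 fold change 2.04 ± 0.32, adjusted p = 0.00133). The rise of Hes1 was uneven between the P0 libraries, and Hes1 stood at 80.7 CPM in the P0 library of the earlier chemistry. The ligand Jag1 stood at 16.2 and 18.9 CPM at E16.5 and 27.0 and 19.9 CPM at P0 and was not past the threshold (log2 fold change 0.44 ± 0.23, adjusted p = 0.159). Of the 5 Notch genes that rose, 3 were above both E16.5 libraries in the P0 library of the earlier chemistry and 1 rose in Grhl3-/- members. With the thinned gate 2 of 14 Notch genes rose, a share near the 14.7% of all genes there, and 1 fell. Rbpj was not past the threshold with that gate (log2 fold change 0.84, adjusted p = 0.0639).

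Transcription factors of the follicle rose in 24 of 42 cases and fell in 5, with a median of 0.68. Besides the factors already described, Trp63, the master factor of stratified epithelia, rose at 234 and 223 CPM at E16.5 and 336 and 335 CPM at P0 (log2 fold change 0.58 ± 0.11, adjusted p = 0.00359). All 5 factors that fell were also below both E16.5 libraries in the P0 library of the earlier chemistry, as 16 of the 24 that rose were above both. Of 39 tested with the thinned gate 15 rose and 3 fell. The list overlaps the lists of follicle compartments, from which it shares members.

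**Figure D3:**
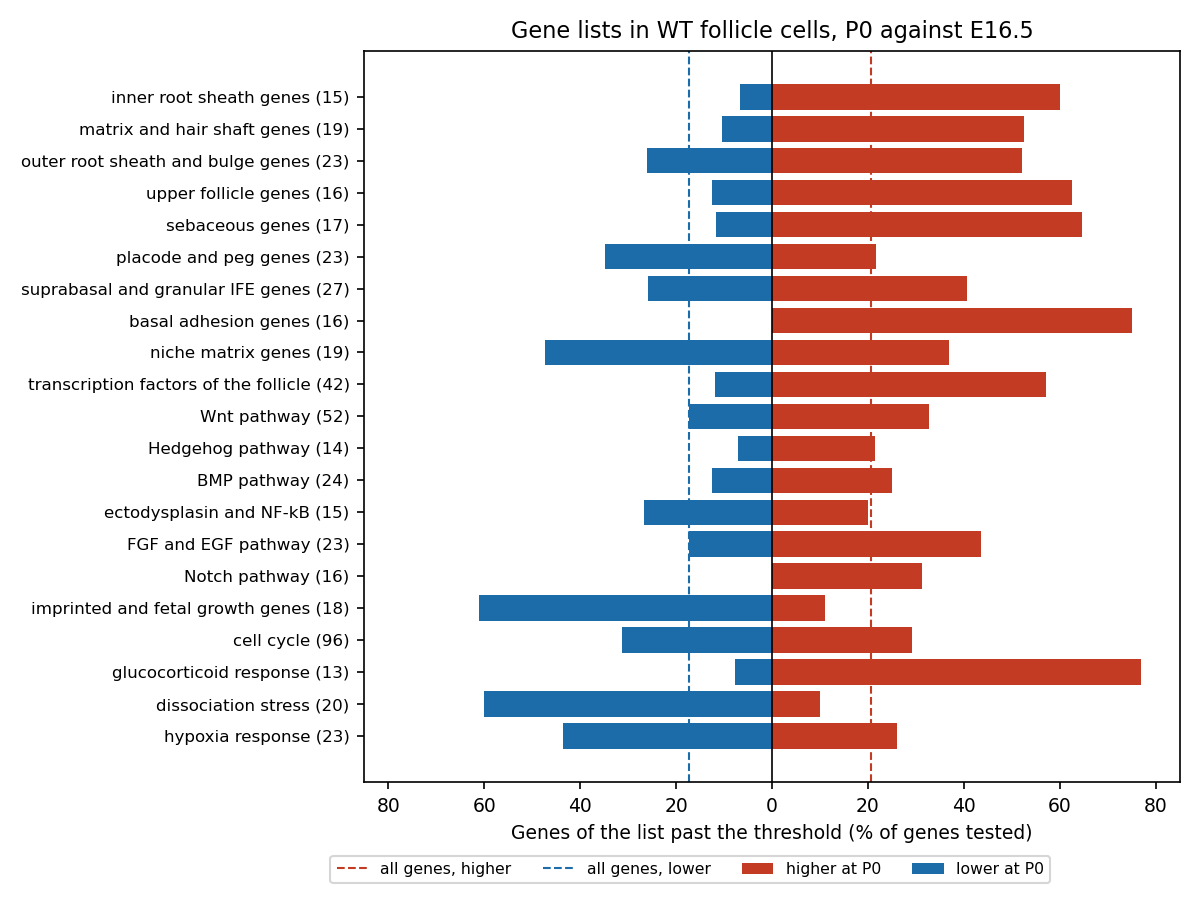
Percent of the genes tested in each list (numbers tested in brackets) that were higher (bars to the right) or lower (bars to the left) at P0 in WT follicle members at an adjusted p under 0.05. Dashed lines mark the same percent over all 13652 genes, 20.6 higher and 17.3 lower. Among the lists drawn, which leave out markers of other cell types, basal adhesion, sebaceous, upper follicle and glucocorticoid lists lay farthest beyond the line on the right, imprinted and dissociation stress lists on the left.

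Genes that anchor basal cells to the basement membrane rose in 12 of 16 cases and fell in 0, with a median of 0.68. Dst and Plec are the plakins that tie keratin filaments to hemidesmosomes. Dst stood at 124 and 112 CPM at E16.5 and 573 and 579 CPM at P0 (log2 fold change 2.32 ± 0.12, adjusted p = 9.69e-06). Plec stood at 54.2 and 45.2 CPM at E16.5 and 153 and 137 CPM at P0 (log2 fold change 1.58 ± 0.14, adjusted p = 9.08e-05). Lama5, a chain of the basement membrane laminin, stood at 34.9 and 27.3 CPM at E16.5 and 91.0 and 88.5 CPM at P0 (log2 fold change 1.57 ± 0.15, adjusted p = 0.000144). Both P0 libraries were above both E16.5 libraries for these 3 genes. The laminin receptor subunit Itga6 stood at 68.5 and 69.1 CPM at E16.5 and 179 and 164 CPM at P0 (log2 fold change 1.35 ± 0.12, adjusted p = 9.08e-05). Col17a1, the hemidesmosomal collagen, rose at 85.9 and 89.5 CPM at E16.5 and 145 and 111 CPM at P0 (log2 fold change 0.57 ± 0.15, adjusted p = 0.0157). Its change was 0.044 (adjusted p = 0.852) with 900 to 4800 genes at both ages and 0.17 (adjusted p = 0.516) without members carrying Mki67 or Top2a. The P0 library of the earlier chemistry was above both E16.5 libraries for 8 of the 12, beside 54.6% of all genes that rose. It was not above both for Dst or Itga6, at 108 and 57.7 CPM. The count was 11 of 15 with the thinned gate. Among junction genes 9 of 22 rose and 3 fell. The desmosomal cadherin Dsg2 rose at 14.3 and 13.4 CPM at E16.5 and 48.1 and 29.1 CPM at P0 (log2 fold change 1.51 ± 0.30, adjusted p = 0.00448). Its relative Dsc3 rose at 58.5 and 83.0 CPM at E16.5 and 149 and 138 CPM at P0 (log2 fold change 1.04 ± 0.16, adjusted p = 0.00111). The tight junction gene Cldn1 rose at 31.1 and 30.3 CPM at E16.5 and 77.2 and 72.2 CPM at P0 (log2 fold change 1.31 ± 0.14, adjusted p = 0.000221). The P0 libraries lay apart for Dsg2 and close together for Dsc3 and Cldn1. Cdh3, the P-cadherin of follicle buds, rose at 79.7 and 81.0 CPM at E16.5 and 107 and 109 CPM at P0 (log2 fold change 0.46 ± 0.12, adjusted p = 0.0136).

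Matrix genes of the follicle's surroundings moved both ways, 7 of 19 higher and 9 lower. Col4a2 and Lamc1 encode chains of basement membrane collagen and laminin. Col4a2 rose at 41.1 and 33.8 CPM at E16.5 and 85.5 and 77.9 CPM at P0 (log2 fold change 1.16 ± 0.15, adjusted p = 0.000522). Lamc1 rose at 33.6 and 33.8 CPM at E16.5 and 63.1 and 73.2 CPM at P0 (log2 fold change 1.05 ± 0.15, adjusted p = 0.000948). Tnc, which encodes tenascin, rose at 10.6 and 8.95 CPM at E16.5 and 19.9 and 22.9 CPM at P0 (log2 fold change 1.17 ± 0.23, adjusted p = 0.00379). Npnt, a matrix protein laid down by bulge cells, rose at 39.2 and 28.3 CPM at E16.5 and 47.6 and 54.4 CPM at P0 (log2 fold change 0.64 ± 0.18, adjusted p = 0.0212). Neither Tnc nor Npnt was past the threshold with the thinned gate (log2 fold changes 0.95 and 0.67, adjusted p = 0.0746 and 0.0742). Sparc, a collagen-binding protein that fibroblasts also make, fell at 326 and 326 CPM at E16.5 and 126 and 91.2 CPM at P0 (log2 fold change -1.56 ± 0.15, adjusted p = 0.000156). Dcn, Lum and Col1a2, of the fibroblast list, fell beside it. Dcn stood at 1023 and 1206 CPM at E16.5 and 408 and 556 CPM at P0 (log2 fold change -1.18 ± 0.17, adjusted p = 0.000878). Lum stood at 77.2 and 49.7 CPM at E16.5 and 0.733 and 0.727 CPM at P0 (log2 fold change -6.39 ± 0.26, adjusted p = 2.8e-06). Col1a2 stood at 188 and 139.7 CPM at E16.5 and 18.4 and 18.0 CPM at P0 (log2 fold change -3.13 ± 0.16, adjusted p = 7.34e-06). Dcn stood far above Lum and Col1a2 at P0, and the cells its RNA came from were not tested. The part of RNA from dermal cells in these falls was not tested.

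Suprabasal and granular genes, the markers of interfollicular keratinocytes that have left the basal layer, were divided. Of 27 tested, 11 rose and 7 fell, with a median of 0.84. Mt4, the metallothionein of stratified epithelia, rose at 1.25 and 4.97 CPM at E16.5 and 37.0 and 32.0 CPM at P0 (log2 fold change 3.41 ± 0.35, adjusted p = 0.000171), on 2 and 10 UMIs at E16.5. Klk7, the desquamation protease given with the upper follicle, also rose. Lor, the main protein of the cornified envelope, fell from 321 and 229 to 31.7 and 20.4 CPM (log2 fold change -3.37 ± 0.23, adjusted p = 2.87e-05). Hrnr, a filaggrin-like gene, fell from 29.9 and 49.7 to 8.97 and 5.07 CPM (log2 fold change -2.49 ± 0.32, adjusted p = 0.00052). Granular genes were detected in 40.4% and 47.3% of thinned members at E16.5 and 13.3% and 12.0% at P0. The shares were 14.2% and 23.8% at E16.5 and 9.39% and 6.49% at P0 in immune barcodes and 26.8% and 32.1% at E16.5 and 9.83% and 5.98% at P0 in melanocyte barcodes, so they went down with age there too, and the part of this background in the falls was not tested. Krt10 and Krt1, the keratin pair of suprabasal cells, were not past the threshold. Krt10 stood at 867 and 1632 CPM at E16.5 and 1038 and 1045 CPM at P0 (log2 fold change -0.23 ± 0.24, adjusted p = 0.473). Krt1 stood at 586 and 888 CPM at E16.5 and 929 and 756 CPM at P0 (log2 fold change 0.22 ± 0.19, adjusted p = 0.39). With the thinned gate the list turned, with 4 of 19 higher, 10 lower and a median of -0.87, and Krt10 and Krt1 fell by 0.94 and 0.72 on the log2 scale (adjusted p = 0.000361 and 0.00923). Krt1 also fell with a collagen limit of 10 UMIs (log2 fold change -0.82, adjusted p = 0.0407). The summed list stood at 5227 and 6284 CPM at E16.5, at 4150 and 3928 CPM at P0 and at 11250 CPM in the P0 library of the earlier chemistry.

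Imprinted and fetal growth genes fell in 11 of 18 cases and rose in 2, with a median of -1.49. Dlk1, an imprinted growth regulator of the fetus, fell from 114 and 86.5 to 0.0916 and 0.0416 CPM (log2 fold change -10.43 ± 0.29, adjusted p = 2.89e-07), the largest fall among genes named by the rule for large changes. Cdkn1c, an imprinted inhibitor of the cell cycle, fell from 130.2 and 145 to 10.1 and 8.21 CPM (log2 fold change -3.88 ± 0.15, adjusted p = 1.92e-06). Igf2, the fetal growth factor, fell at 23.04 and 19.4 CPM at E16.5 and 5.22 and 6.55 CPM at P0 (log2 fold change -1.81 ± 0.24, adjusted p = 0.00065). H19 is the imprinted RNA beside it, and fell at 269 and 267 CPM at E16.5 and 170.0 and 142 CPM at P0 (log2 fold change -0.75 ± 0.12, adjusted p = 0.0017). The chromatin protein gene Hmga2 fell at 51.7 and 49.7 CPM at E16.5 and 15.1 and 19.3 CPM at P0 (log2 fold change -1.53 ± 0.18, adjusted p = 0.000331). The RNA-binding protein gene Igf2bp1 fell at 18.7 and 20.4 CPM at E16.5 and 8.93 and 10.8 CPM at P0 (log2 fold change -0.96 ± 0.22, adjusted p = 0.00878). Igf1r, the receptor for insulin-like growth factors, rose from 21.8 and 20.9 to 153 and 132 CPM (log2 fold change 2.77 ± 0.16, adjusted p = 1.17e-05). Of these 11, 10 were below both E16.5 libraries in the P0 library of the earlier chemistry and 10 fell in Grhl3-/- members, while Igf1r stood at 21.6 CPM in the former. RNA of these genes was also found in immune barcodes, where Dlk1 stood at 394 and 328 CPM at E16.5 and 0 and 0.172 CPM at P0. There Cdkn1c stood at 381 and 215 CPM at E16.5 and 1.43 and 2.58 CPM at P0. Igf2 stood at 49.4 and 34.8 CPM at E16.5 and 1.71 and 1.55 CPM at P0, and H19 at 289 and 195 CPM at E16.5 and 51.4 and 18.4 CPM at P0. In immune barcodes Hmga2, Igf2bp1 and Igf1r also moved in the same direction as in members, in both libraries of each age. Igf2bp1 stood there at 20.5 and 22.2 CPM at E16.5 and 4.57 and 2.58 CPM at P0. For Dlk1, Cdkn1c, Igf2 and Igf2bp1 the E16.5 levels of members were below those of immune barcodes of the same libraries. The falls of these genes are therefore not read as a change within follicle cells.

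The cell cycle list was split. Of 96 genes tested, 28 rose and 30 fell, with a median of -0.05. Mki67, the proliferation antigen, rose at 58.5 and 59.7 CPM at E16.5 and 123 and 121 CPM at P0 (log2 fold change 1.08 ± 0.12, adjusted p = 0.000258). Top2a, the topoisomerase of dividing cells, rose at 152 and 163 CPM at E16.5 and 405 and 279.9 CPM at P0 (log2 fold change 1.15 ± 0.17, adjusted p = 0.00112). The kinetochore motor gene Cenpe rose at 33.0 and 41.8 CPM at E16.5 and 113 and 113 CPM at P0 (log2 fold change 1.62 ± 0.14, adjusted p = 9.32e-05). The genes that fell included Rrm2, Tipin and Ung, which act in DNA replication and repair. Rrm2 stood at 134 and 149 CPM at E16.5 and 47.8 and 41.4 CPM at P0 (log2 fold change -1.64 ± 0.13, adjusted p = 5.08e-05). Tipin stood at 186 and 199.8 CPM at E16.5 and 52.7 and 56.7 CPM at P0 (log2 fold change -1.79 ± 0.11, adjusted p = 1.97e-05). Ung stood at 101 and 93.5 CPM at E16.5 and 29.8 and 34.7 CPM at P0 (log2 fold change -1.56 ± 0.14, adjusted p = 9.14e-05). Both P0 libraries were below both E16.5 libraries for each of the 3. E2f1, the factor that drives entry into S phase, fell at 44.2 and 35.3 CPM at E16.5 and 12.1 and 11.03 CPM at P0 (log2 fold change -1.74 ± 0.18, adjusted p = 0.000191). 

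The cyclin genes Ccnd1 and Ccnd2 and the cell cycle inhibitors Cdkn1a and Cdkn1b all rose. Ccnd1 stood at 202 and 188 CPM at E16.5 and 292 and 331 CPM at P0 (log2 fold change 0.71 ± 0.12, adjusted p = 0.00219). Ccnd2 stood at 542 and 603 CPM at E16.5 and 898 and 757 CPM at P0 (log2 fold change 0.56 ± 0.13, adjusted p = 0.0101). Cdkn1a stood at 53.6 and 55.7 CPM at E16.5 and 114 and 119 CPM at P0 (log2 fold change 1.13 ± 0.12, adjusted p = 0.000243). Both P0 libraries were above both E16.5 libraries for these 3 genes. Cdkn1b stood at 14.3 and 15.4 CPM at E16.5 and 38.8 and 41.5 CPM at P0 (log2 fold change 1.46 ± 0.18, adjusted p = 0.000389). Tipin, Rrm2 and Ung stood at 208, 142 and 136 CPM in the P0 library of the earlier chemistry, above at least 1 E16.5 library each. Of the 30 genes that fell in WT, 2 fell in Grhl3-/- members, where 48 of 96 rose and 3 fell, while 19 of the 28 that rose in WT rose there. Without members that carried Mki67 or Top2a, 4 of 92 rose and 40 fell, beside 16.8% and 15.1% of 11539 genes. Both genes belong to the list, so leaving out their cells lowers genes expressed with them by construction, and nothing is read from this count.

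Response genes changed as well. Of 13 glucocorticoid-responsive genes 10 rose and 1 fell, with a median of 2.24. Klf9, a circadian factor induced by the hormone receptor, stood at 11.2 and 9.94 CPM at E16.5 and 107 and 128 CPM at P0 (log2 fold change 3.52 ± 0.19, adjusted p = 9.69e-06). Tsc22d3, which mediates anti-inflammatory effects, stood at 16.2 and 16.9 CPM at E16.5 and 99.7 and 153 CPM at P0 (log2 fold change 2.96 ± 0.26, adjusted p = 8.77e-05). Zbtb16, a zinc finger repressor, stood at 30.5 and 24.4 CPM at E16.5 and 151 and 187 CPM at P0 (log2 fold change 2.67 ± 0.18, adjusted p = 2.51e-05). The metallothionein genes Mt1 and Mt2, whose products bind zinc, rose too. Mt1 stood at 255 and 235 CPM at E16.5 and 1221 and 1051 CPM at P0 (log2 fold change 2.24 ± 0.14, adjusted p = 1.78e-05). Mt2 stood at 160.1 and 167 CPM at E16.5 and 1285 and 1118 CPM at P0 (log2 fold change 2.91 ± 0.14, adjusted p = 5.58e-06). The P0 library of the earlier chemistry was above both E16.5 libraries for 5 of the 10, but held Tsc22d3 at 6.66 and Zbtb16 at 4.10 CPM.

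Immediate-early and heat shock genes that respond to cell dissociation fell in 12 of 20 cases and rose in 2, with a median of -0.70. The list summed to 6180.3 and 5513 CPM at E16.5 and to 3432 and 4066 CPM at P0, but to 5859.9 CPM in the P0 library of the earlier chemistry, where 6 of the 12 that fell lay below both E16.5 libraries. Fos stood at 633 and 491 CPM at E16.5 and 220.2 and 239.8 CPM at P0 (log2 fold change -1.26 ± 0.15, adjusted p = 0.000335). The phosphatase Dusp1 stood at 120.2 and 85.5 CPM at E16.5 and 34.8 and 28.9 CPM at P0 (log2 fold change -1.65 ± 0.18, adjusted p = 0.000223). Atf3, a stress-induced factor, stood at 61.0 and 31.3 CPM at E16.5 and 20.8 and 16.3 CPM at P0 (log2 fold change -1.26 ± 0.27, adjusted p = 0.00626). Digestion times differed between the ages, and their part in these falls was not tested. In the hypoxia list 6 of 23 rose, a share near the 20.6% of all genes, and 10 fell. The hexokinase gene Hk2 rose at 16.2 and 17.9 CPM at E16.5 and 128 and 75.8 CPM at P0 (log2 fold change 2.60 ± 0.29, adjusted p = 0.000264). Ddit4, an inhibitor of mTOR signalling, rose at 92.8 and 94.4 CPM at E16.5 and 352 and 320.4 CPM at P0 (log2 fold change 1.87 ± 0.12, adjusted p = 2.09e-05). The enolase gene Eno1 fell at 285 and 281 CPM at E16.5 and 81.3 and 65.7 CPM at P0 (log2 fold change -1.92 ± 0.13, adjusted p = 2.86e-05). Hk2 and Ddit4 stood at 5.78 and 35.1 CPM in the P0 library of the earlier chemistry, below both E16.5 libraries, and 1 of the 6 genes that rose lay above both there.

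The rule for large changes also named genes that stood on none of the lists. Cyp2g1, a cytochrome P450 gene, had no UMI in E16.5 members and 42.9 and 77.6 CPM at P0, at least 73.7-fold higher. Ccer2 had 2 UMIs in all at E16.5 and 279.5 and 169 CPM at P0, a ratio of 401 with a 95% counting interval of 111 to 3309. Pcsk2, which cleaves prohormones, rose from 3.74 and 0.497 to 83.2 and 50.02 CPM (log2 fold change 5.12 ± 0.52, adjusted p = 0.000168). Ptgds, a prostaglandin synthase, rose from 11.2 and 1.99 to 153 and 141 CPM (log2 fold change 4.61 ± 0.35, adjusted p = 4.71e-05). Abi3bp, a matrix protein gene, rose from 7.47 and 7.46 to 57.1 and 115 CPM (log2 fold change 3.56 ± 0.43, adjusted p = 0.0004). The genes that fell included Itm2a, a membrane protein gene, at 90.3 and 82.0 CPM at E16.5 and 9.18 and 11.7 CPM at P0 (log2 fold change -3.01 ± 0.17, adjusted p = 1.16e-05). Ass1, which makes argininosuccinate, stood at 245 and 296 CPM at E16.5 and 42.4 and 38.8 CPM at P0 (log2 fold change -2.71 ± 0.13, adjusted p = 5.74e-06). The actin regulator Pfn2 stood at 143 and 163 CPM at E16.5 and 19.6 and 26.9 CPM at P0 (log2 fold change -2.69 ± 0.17, adjusted p = 2.19e-05). For these 3 genes each P0 library was far below each E16.5 library. The log2 age change in members minus that in other keratinocytes was 0.61 for Itm2a, beside 0.69 for Col1a2 of the fibroblast list, and -1.38 for Pfn2. The part of RNA from dermal cells in the fall of Itm2a was not tested. Nt5dc2 fell at 325 and 343 CPM at E16.5 and 45.7 and 57.9 CPM at P0 (log2 fold change -2.66 ± 0.14, adjusted p = 9.69e-06). The glutathione transferase Gsta4 fell at 56.7 and 91.5 CPM at E16.5 and 17.2 and 5.05 CPM at P0 (log2 fold change -2.73 ± 0.49, adjusted p = 0.00268). Gm8730, a ribosomal protein pseudogene whose reads can come from its parent gene, stood at 4319 and 522 CPM at E16.5 and 212 and 274 CPM at P0 (log2 fold change -3.29 ± 0.74, adjusted p = 0.00774), with the E16.5 libraries far apart. The melanocyte genes Dct and Pmel were also among the large rises, at 4.36 and 1.99 CPM at E16.5 and 707 and 465 CPM at P0 and 8.10 and 0.994 CPM at E16.5 and 169 and 120.0 CPM at P0, beside the melanocyte barcodes that met the rule at P0.

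Some calls did not hold when a library was left out. Of the 131 genes described in the members, 119 were past the threshold. Without E16.5 replicate 2, 22 of these were not, at adjusted p from 0.0507 to 0.231, namely Barx2, Ccnd1, Ccnd2, Cdh3, Col17a1, Dkk3, Dsg2, Edar, Fgfr2, Foxn1, Gata3, Gsta4, Igf2bp1, Krt71, Lef1, Nav2, Npnt, Ptch1, Rbpj, Tab2, Tnc and Trp63. Without E16.5 replicate 1, 13 were not, at adjusted p from 0.0578 to 0.192, namely Atf3, Barx2, Ccnd2, Cdh3, Col17a1, Foxn1, Gata3, Krt71, Lef1, Msx2, Rbpj, Wnt16 and Wnt6. Without P0 replicate 1 only Foxn1 was lost (adjusted p = 0.115), and without P0 replicate 2 none of the 119 was. For the differences between cell classes, Frem2, Flg_ENSMUSG00000102439 and Runx1 were lost without E16.5 replicate 2 (adjusted p from 0.0622 to 0.248) and Flg_ENSMUSG00000102439 without E16.5 replicate 1 (adjusted p = 0.331).

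Other limits on the members also ended calls. Asking 3 of the 6 genes ended those of Atf3, Barx2, Ccnd1, Cdh3, Dkk3, Edar, Gata6, H19, Krt17, Krt71, Lef1, Msx2, Npnt and Wnt6 (adjusted p from 0.0597 to 0.98). Asking at least 2 UMIs of at least 2 of the 6 genes ended those of Barx2, Foxn1, Igf2bp1, Krt27, Krt71, Lef1, Msx2 and Npnt (0.0512 to 0.764). Leaving out members with Mki67 or Top2a ended those of Ccnd2, Cenpa, Col17a1, Foxn1, Gata3, Krt27, Msx2 and Npnt (0.0517 to 0.568). With Krt5 and Krt14 at 20 UMIs or more, Ccnd2, Foxn1, Msx2, Ptch1 and Tgfb2 were not past the threshold (0.0506 to 0.157), nor were the differences of Flg_ENSMUSG00000102439 and Lor (0.928 and 0.645). The difference of Flg_ENSMUSG00000102439 was also lost with 3 of the 6 genes (0.0984), with 2 UMIs of each of 2 genes (0.0581; 0.173 without other cell types as well), with 1 gene at 2 UMIs (0.0734) and at a mitochondrial limit of 5% (0.0799). That of Lor was lost at a collagen limit of 10 UMIs (0.195), that of Frem2 with sums thinned to the smallest (0.129) and that of Cenpa without members carrying Mki67 or Top2a (0.0596).

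The age change in members was set against that in other keratinocytes of the same libraries, of which 3107 of 12307 genes were higher and 2960 lower at P0 (25.2% and 24.1%). The difference between the 2 age changes was past the threshold for 423 genes in favour of members and 366 in favour of other keratinocytes, 3.27% and 2.83% of 12943 tested. Other keratinocytes at P0 also carried UMIs of follicle genes, upper follicle genes in 17.7% and 19.7% of them after thinning and inner root sheath keratins in 7.85% and 6.58%. In immune barcodes of these libraries the shares were 6.12% and 3.83% and 0.816% and 0.666%, and in melanocyte barcodes 12.8% and 6.93% and 1.90% and 0.855%. Tgfb2, a growth factor of the follicle bud, fell in members (log2 fold change -0.93 ± 0.13, adjusted p = 0.000837) and stood at 8.28 and 6.95 CPM at E16.5 and 31.3 and 27.2 CPM at P0 in other keratinocytes, a difference of -2.80 ± 0.18 (adjusted p = 1.68e-07). Nfatc1, near level in members, stood at 2.65 and 1.70 CPM at E16.5 and 14.9 and 9.99 CPM at P0 in other keratinocytes, a difference of -2.36 ± 0.29 (adjusted p = 0.000111). Runx1 and Barx2 rose more there than in members. The difference was -1.22 ± 0.18 (adjusted p = 0.000466) for Runx1 and -1.44 ± 0.16 (adjusted p = 3.85e-05) for Barx2. That of Runx1 was -0.98 without E16.5 replicate 2 (adjusted p = 0.0622). Of the 23 outer root sheath and bulge genes, 22 could be tested for the difference, which was lower in members for 7 and higher for 1. Trps1 fell in members and stood at 6.63 and 7.12 CPM at E16.5 and 18.7 and 10.6 CPM at P0 in other keratinocytes, a difference of -2.90 ± 0.24 (adjusted p = 3.06e-06).

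Differences in the other direction included signalling genes. Wnt16 fell in other keratinocytes, at 50.4 and 48.8 CPM at E16.5 and 33.0 and 36.2 CPM at P0, a difference of 1.46 ± 0.18 (adjusted p = 0.000113). Lef1 fell more there, at 148 and 138 CPM at E16.5 and 46.5 and 43.8 CPM at P0, a difference of 1.16 ± 0.12 (adjusted p = 1.61e-05). Edn1, the vasoactive peptide endothelin, rose in members at 13.1 and 9.44 CPM at E16.5 and 145 and 82.9 CPM at P0 and stood at 11.6 and 9.33 CPM at E16.5 and 45.2 and 25.6 CPM at P0 in other keratinocytes, a difference of 1.70 ± 0.22 (adjusted p = 0.000186). Nav2 stood at 66.0 and 66.1 CPM at E16.5 and 96.8 and 115 CPM at P0 in members and at 69.9 and 68.3 CPM at E16.5 and 46.2 and 43.0 CPM at P0 in other keratinocytes, a difference of 1.40 ± 0.14 (adjusted p = 1.61e-05). Frem2, a basement membrane protein gene, gave a difference of 1.16 ± 0.20 (adjusted p = 0.00167). The RNA-binding protein gene Mex3a gave a difference of 1.14 ± 0.18 (adjusted p = 0.000835). For 24 of 96 cell cycle genes the difference was higher in members and for 0 it was lower, with a median of 0.36, beside 3.27% and 2.83% of all genes. Members were deeper than other keratinocytes at P0, with medians of 8480 and 10473 against 6950 and 8808.5 UMIs. At E16.5 the medians were 7515 and 7916 against 7467 and 8230 UMIs. The part of depth in this count was not tested. Cenpa, the centromere histone, stood at 163 and 165 CPM at E16.5 and 281 and 298 CPM at P0 in members. It stood at 153 and 132 CPM at E16.5 and 164 and 148 CPM at P0 in other keratinocytes, a difference of 0.78 ± 0.11 (adjusted p = 0.000326). The differences of Edn1, Frem2, Mex3a and Cenpa were not past the threshold with the thinned gate (adjusted p from 0.186 to 0.78). Negative differences were also seen for single genes. The difference was -3.34 ± 0.36 (adjusted p = 3.06e-05) for Scd1, and -2.97 without members carrying Mki67 or Top2a (adjusted p = 0.111). It was -3.33 ± 0.41 (adjusted p = 9.47e-05) for Cers4, a ceramide synthase, and -2.91 ± 0.23 (adjusted p = 1.64e-06) for Me1, which supplies reducing power. For the cornified layer proteins it was -3.86 ± 0.54 (adjusted p = 0.000319) for Lor and -2.69 ± 0.69 (adjusted p = 0.0285) for Flg_ENSMUSG00000102439, filaggrin. With the thinned gate these 2 differences were 0.60 and 0.049, of the opposite sign and not past the threshold (adjusted p = 0.251 and 0.984). That of Flg_ENSMUSG00000102439 also turned, to 0.78, without suprabasal-like cells (adjusted p = 0.34), and was -2.67 without cells carrying markers of other types (adjusted p = 0.0593). Of 27 suprabasal and granular genes, 8 had a lower difference and 0 a higher one, and of 17 sebaceous genes 5 and 1.

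**Figure D4:**
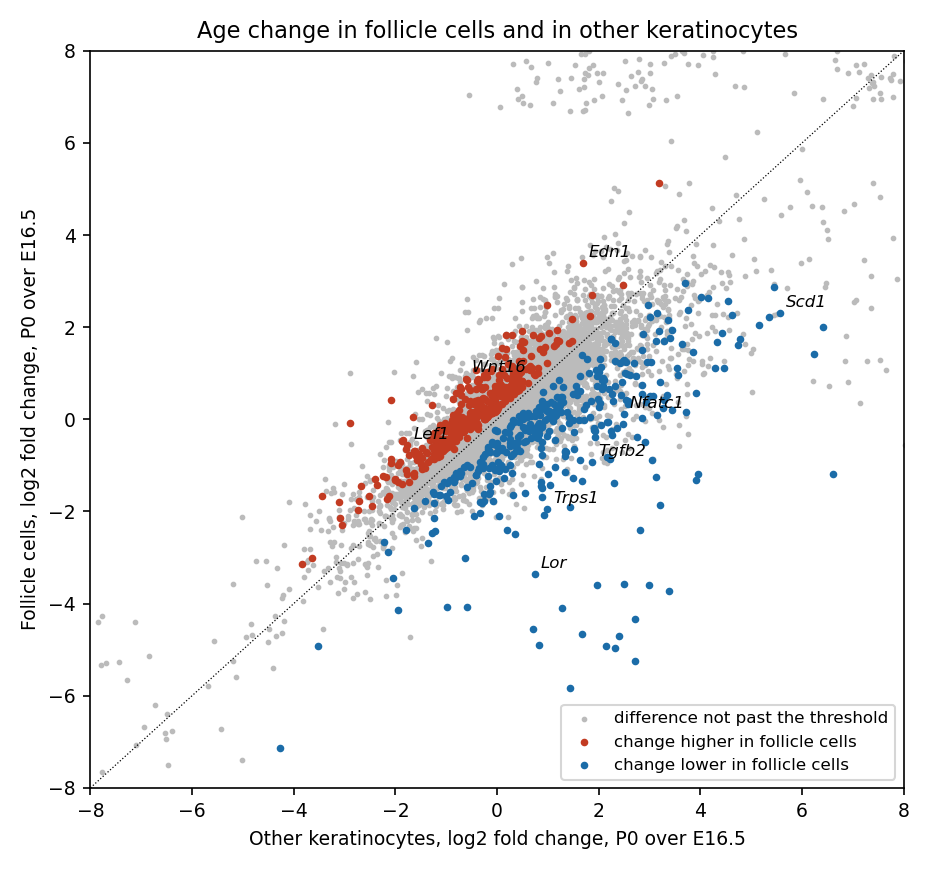
Log2 fold change from E16.5 to P0 of 12200 genes in other WT keratinocytes (x axis) and in WT follicle members (y axis), with genes past the threshold for the difference in red (higher in members) or blue (lower in members) and the line of equal change dotted. Axes end at 8 in either direction and leave out 119 genes, and Trps1, Tgfb2, Nfatc1 and Lor lay below the line, Edn1, Wnt16 and Lef1 above it.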

How the data were processed

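Droplet 3′ single-cell libraries of WT back skin at E16.5 and P0 were analysed, 2 at each age. Per the labels and the methods, the authors counted UMIs with Cell Ranger (1.3.1 in the submitters' processing notes, which also name Seurat, while the methods give a later version) on mm10, and the deposited values are raw UMI counts for each of 27998 gene identifiers and each barcode, one file for each library and not normalised. Counting merges copies of a transcript by its tag, and reads shared by near-identical genes are not resolved.

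Mitochondrial UMIs were limited to 10% of a cell. E16.5 cells were kept at 600 to 4800 detected genes and P0 cells at 900 to 7700. Members met the keratin, follicle and collagen limits given in the report, and their UMIs were summed for each library, since cells are not replicates. Doublets were kept, and an alternative left out the highest Scrublet scores (scanpy 1.11.5). Sums were fitted with edgeR 4.0.16 in R 4.3.3 (filterByExpr, TMM, quasi-likelihood test, two-sided, Benjamini-Hochberg over all genes tested, threshold 0.05). Log2 ratios of markers had 1 CPM added. The difference between cell classes was fitted as an interaction with library as a block. DESeq2 1.42.0 was an alternative, with other size factors, filters, gates, thinned counts and each library left out. The fit was tested on simulated sums for 13652 genes in the member comparison, where 68 of 100 genes changed by 1 on the log2 scale and 99 of 100 changed by 2 were recovered, with 4 false calls. Every simulated gene had the same spread between libraries, and changed genes were not drawn from the lowest expressed. The simulation began from sums without the filter on low counts, so the gate, the cell limits and RNA of other cells were not tested by it. Exact intervals of shares and the floor of 3 UMIs for a count of 0 cover counting error only.

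The 37 gene lists held 650 genes, of which 647 were found in the files. Members and lists were chosen with earlier results of these data known. Named genes were a written set, up to 4 genes of each list with the largest change past the threshold, and the 10 largest changes in each direction without overlap between the ages, leaving out genes of the rule, haemoglobin genes and sex genes. Libraries at E14.5 were not used here.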

Additional observations from a re-analysis of the deposited data

Results flagged for a closer look

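For 51 of the genes described in the report, the age change in follicle members differed from that in other keratinocytes of the same libraries, by the interaction of cell class and age in edgeR's quasi-likelihood test (adjusted p from 1.68e-07 to 0.0489). Over all 12943 genes tested, the difference was higher in members for 3.27% and lower for 2.83%. Part of the described genes were named for a large difference in this same test, so their number is not read as a result. Values in brackets are the log2 age change in members minus that in other keratinocytes. The difference was negative by more than 2 for Lor (-3.86), Scd1 (-3.34), Cers4 (-3.33), Krt27 (-3.16), Hrnr (-2.93), Me1 (-2.91), Trps1 (-2.90), Tgfb2 (-2.80), Flg_ENSMUSG00000102439 (-2.69), Nfatc1 (-2.36) and Dlk1 (-2.25). It lay between -2 and -1 for Pthlh (-1.96), Msx2 (-1.69), Hoxc13 (-1.56), Igf2 (-1.53), Id4 (-1.45), Barx2 (-1.44), Wif1 (-1.42), Pfn2 (-1.38), Runx1 (-1.22) and Cux1 (-1.09), and was smaller for Tsc22d3 (-0.75), Cldn1 (-0.73), Krt17 (-0.64), Klk10 (-0.63), Ccnd1 (-0.62), H19 (-0.55), Dusp1 (-0.54), Nt5dc2 (-0.47), Eno1 (-0.33) and Krt10 (-0.22). The difference was positive for Pcsk2 (1.99), Edn1 (1.70), Wnt16 (1.46), Nav2 (1.40), Lef1 (1.16), Frem2 (1.16), Mex3a (1.14), Jag1 (1.04), Fst (0.95), Wnt6 (0.84), Notch1 (0.81), Cenpa (0.78), Cyr61 (0.72), Col1a2 (0.69), Itm2a (0.61), Dsc3 (0.52), Fgfr2 (0.45), Mt2 (0.40), Mt1 (0.39) and Ccnd2 (0.33). These values come from 2 libraries at each age, and other keratinocytes at P0 also carried UMIs of follicle genes.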

How the results depend on the processing

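Counts are of genes higher and lower at P0. In members, DESeq2 gave 2136 and 2248, against 2807 and 2366. Counts within 1.5 times of these were also given by the other tests, filters and gates, except that the thinned gate gave 1582 and 1464, asking 3 of the 6 genes gave 1559 lower, and adding the P0 library of the earlier chemistry gave 49 and 79. Leaving out 1 library gave 1327 to 2704 higher and 1076 to 2513 lower, with 1746 and 1330 without E16.5 replicate 1 and 1327 and 1076 without E16.5 replicate 2. In other keratinocytes the ranges were 1931 to 3532 and 1893 to 3315, the lowest without E16.5 replicate 2. For the difference between cell classes, 423 and 366, the range was 108 to 581 and 130 to 545, with 220 and 165 without E16.5 replicate 1 and 108 and 130 without E16.5 replicate 2. DESeq2 gave 108 and 264 for it, RLE size factors 309 and 410, sums thinned to the smallest 153 higher, the thinned gate 221 and 195, 3 of the 6 genes 652 higher, and leaving out members with Mki67 or Top2a 279 higher. In Grhl3-/- members, 1357 and 972, the range was 737 to 1269 and 457 to 852, with 737 and 457 without E16.5 replicate 1 and 646 lower without E16.5 replicate 2, and the thinned gate gave 470 and 412. A fit with 1 library at an age assumes that it varies like the others. The causes were not tested.

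Replicate numbers did not pair the samples (correlation of same-number deviations -0.00439 in WT and -0.0199 in Grhl3-/- libraries). With the replicate block the counts were 2800 and 2368 in members, 3317 and 3141 in other keratinocytes, 1471 and 1031 in Grhl3-/- members, and 742 and 527 for the difference. The block changed no call of the 131 genes described in members or the 17 described for the difference.

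Mean shares of members among keratinocytes were 17.0% and 54.5% at E16.5 and P0 after thinning and 12.4% and 50.7% with 3 or more of the 6 genes. Without thinning, mean shares of members were 1.54% and 16.4% for inner root sheath keratins, 10.2% and 35.7% for matrix factors, 19.2% and 52.3% for upper follicle genes, 43.2% and 74.1% for outer root sheath genes, 89.7% and 77.9% for suprabasal keratins and 27.0% and 50.7% for Mki67 or Top2a. The median log2 ratio of follicle markers between members and other keratinocytes at P0 was 0.46 with the thinned gate. Over all alternatives, values of single genes turned in direction 39 times in members and 3 times for the difference, all but those of Barx2, Lef1, Flg_ENSMUSG00000102439 and Lor for genes that had not passed the threshold, and 198 and 23 times a gene was no longer past it. With 3 of the 6 genes asked of a member the values were Barx2 -0.0081, Bmp4 -0.15, Krt10 0.24, Krt15 0.070, Lef1 0.095, Nfatc1 -0.43 and Wnt10a 0.37. With sums thinned to the smallest the values were Bmp4 -0.10, Gli1 -0.081 and Nfatc1 -0.076. At a mitochondrial limit of 5% the value was Fst -0.0041. Without members with Mki67 or Top2a the values were Gli1 -0.0030 and Krt1 -0.082. With the P0 library of the earlier chemistry added the values were Gli1 -0.023, Jag1 -0.040, Krt10 0.72, Nfatc1 -0.050 and Wnt10a 0.13. With the thinned gate the values were Jag1 -0.0028, Krt1 -0.72, Tchh -0.080, Flg_ENSMUSG00000102439 difference 0.049 and Lor difference 0.60. With 1 follicle gene at 2 UMIs the value was Krt1 -0.10. With 900 to 4800 genes at both ages the values were Krt1 -0.012 and Nfatc1 -0.00085. Without suprabasal-like cells the values were Krt1 -0.21 and Flg_ENSMUSG00000102439 difference 0.78. With a collagen limit of 10 UMIs the values were Krt1 -0.82, which was past the threshold (adjusted p = 0.0407), and Wnt10b -0.041. With 2 follicle genes at 2 UMIs each the values were Krt10 0.044, Nfatc1 -0.052 and Wnt10a 0.11. With that limit and without members carrying other cell types the values were Krt10 0.061, Krt15 0.043, Nfatc1 -0.093 and Wnt10a 0.24. Without E16.5 replicate 1 the value was Krt1 -0.014. Without E16.5 replicate 2 the values were Krt10 0.31 and Nfatc1 -0.11. Without P0 replicate 1 the value was Nfatc1 -0.055. Without P0 replicate 2 the value was Fst -0.21. Leaving out 1 library gave ranges of -0.014 to 0.57 for Krt1, -0.59 to 0.31 for Krt10 and -0.11 to 0.39 for Nfatc1. The planned limit on cell cycle genes left 1 cell in each E16.5 library and was not run. The alternatives without Mki67 or Top2a, without other cell types, with 2 follicle genes at 2 UMIs each and with a collagen limit of 10 were chosen after seeing the data. The E16.5 sums held 1605760 and 2011682 UMIs, which limits low genes such as Krt25 and Foxn1.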
